A study of Xenopus tropicalis with 15 samples.

Results

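The hox genes of Xenopus tropicalis were followed by cluster and by paralog group in gastrulae that had been dorsalised with LiCl, ventralised with UV light or left untreated. Members were all genes of the count table whose symbol names a hox gene of cluster A, B, C or D with its paralog number, which gave 38 of 28206 genes, with 11 in HoxA, 9 in HoxB, 10 in HoxC and 8 in HoxD. The study sequenced polyadenylated RNA from whole wild-type embryos of the out-bred Nigerian strain at stage 11 to 11.5. LiCl-treated embryos had been placed in 0.3 M LiCl when they had reached the 32-cell stage, which dorsalises the embryo. UV-treated embryos had been irradiated for 2 minutes within 30 minutes of fertilisation, which ventralises it, and untreated embryos had neither treatment. Each condition had 5 libraries of 10 pooled embryos, which the study describes as independent experiments. A weakly affected embryo cannot be told apart within a pool.

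Hox genes encode homeodomain transcription factors that give cells of the trunk, hindbrain and tail their position along the head-to-tail axis. Vertebrates carry them in several clusters, and genes of like position in different clusters form a paralog group, numbered from the end of the cluster whose genes act most anteriorly. Genes of low paralog groups are switched on first, in the mesoderm of the gastrula and then in the neural plate, and genes of higher groups follow (temporal collinearity), in response to Wnt, FGF and retinoic acid signals and to Cdx proteins. The Spemann organiser and the head that it induces lack most hox expression.

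In the gene models deposited with the counts (assembly v7.1), every cluster was intact and lay in paralog order. HoxA covered 97.9 kb on scaffold 6 (103443382–103541322, forward strand) with hoxa13 at the low coordinate. HoxB covered 102.4 kb on scaffold 10 (28882586–28984964, forward strand), with hoxb9 and hoxb1 at its ends. HoxC covered 279.6 kb on scaffold 2 (90095784–90375366, reverse strand), with hoxc3 and hoxc13 at its ends. HoxD covered 130.7 kb on scaffold 9 (20755816–20886493, reverse strand), with hoxd1 and hoxd13 at its ends. All members of a cluster were therefore transcribed in 1 direction, from high towards low paralog numbers. The counting was not stated to use strand and the library kit does not mark it, so 2 members are uncertain: hoxc8 shares 1544 exon bases with a model on the opposite strand, and hoxc3 shares 130. Those antisense models had almost no counts of their own, with means of at most 0.0854 CPM (counts scaled to library size and composition) in any condition. If strand was not used, reads shared by 2 models were dropped, so this does not show that antisense RNA was absent.

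The libraries held 8412818 to 17737546 counts in LiCl-treated embryos (median 11152157), 11890416 to 18254396 in UV-treated embryos (median 13987953) and 11002771 to 18455126 in untreated embryos (median 16560816). A count of 3 was taken as the floor below which a gene was not detectable at this depth, equal to 0.163 to 0.357 CPM depending on the library, and this floor covers counting error only. Defining genes of the gastrula were present in every library, and the genes of the organiser that mark the dorsal side (chrd, gsc and nog) summed to 751 to 1110 CPM in LiCl-treated, 16.7 to 151 CPM in UV-treated and 255 to 464 CPM in untreated embryos. No library went against its label on this measure. Over all genes, UV-treated replicates 4 and 5 were the most alike pair within a condition (chi-square per degree of freedom 4.34, against 13.02 to 118.7 for the other pairs), though still further apart than sampling noise, and LiCl-treated and untreated replicates 4 were on average the least like the others of their condition. Results are therefore also given without these libraries and without those numbered 5, whose hox counts were high. UV-treated replicates 4 and 5 count as separate libraries in the main fit, and whether they share a clutch was not tested.

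A single gene carried most of the hox counts. hoxd1 averaged 76.6 ± 52.7 CPM in LiCl-treated, 383 ± 74.4 CPM in UV-treated and 325 ± 98.1 CPM in untreated embryos (SD, n = 5 each), and the 37 other members together averaged 32.2 ± 20.7 CPM in LiCl-treated, 135 ± 86.6 CPM in UV-treated and 155 ± 155 CPM in untreated embryos. Per kb of exon, untreated embryos held 191 CPM of hoxd1, 7.63 CPM of hoxd4, 6.34 CPM of hoxc6, 6.03 CPM of hoxb4 and 5.47 CPM of hoxb3. The last 4 of these genes did not differ beyond the spread between untreated libraries, whose SD was close to or above the mean for hoxd4 and hoxc6. The number of members above the floor was 7 to 28 per library in LiCl-treated embryos, 23 to 32 in UV-treated embryos and 13 to 33 in untreated embryos, so the conditions overlapped in how much of the clusters was detectable. By paralog number, 6 of 13 members of groups 1 to 4 lay above the floor in all 5 LiCl-treated libraries, 9 in all 5 UV-treated and 6 in all 5 untreated libraries. Of the 11 members of groups 5 to 8, none did so in LiCl-treated, 8 in UV-treated and 3 in untreated embryos, and of the 14 members of groups 9 to 13 0 did so in LiCl-treated, 4 in UV-treated and 0 in untreated embryos.

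**Figure D1:**
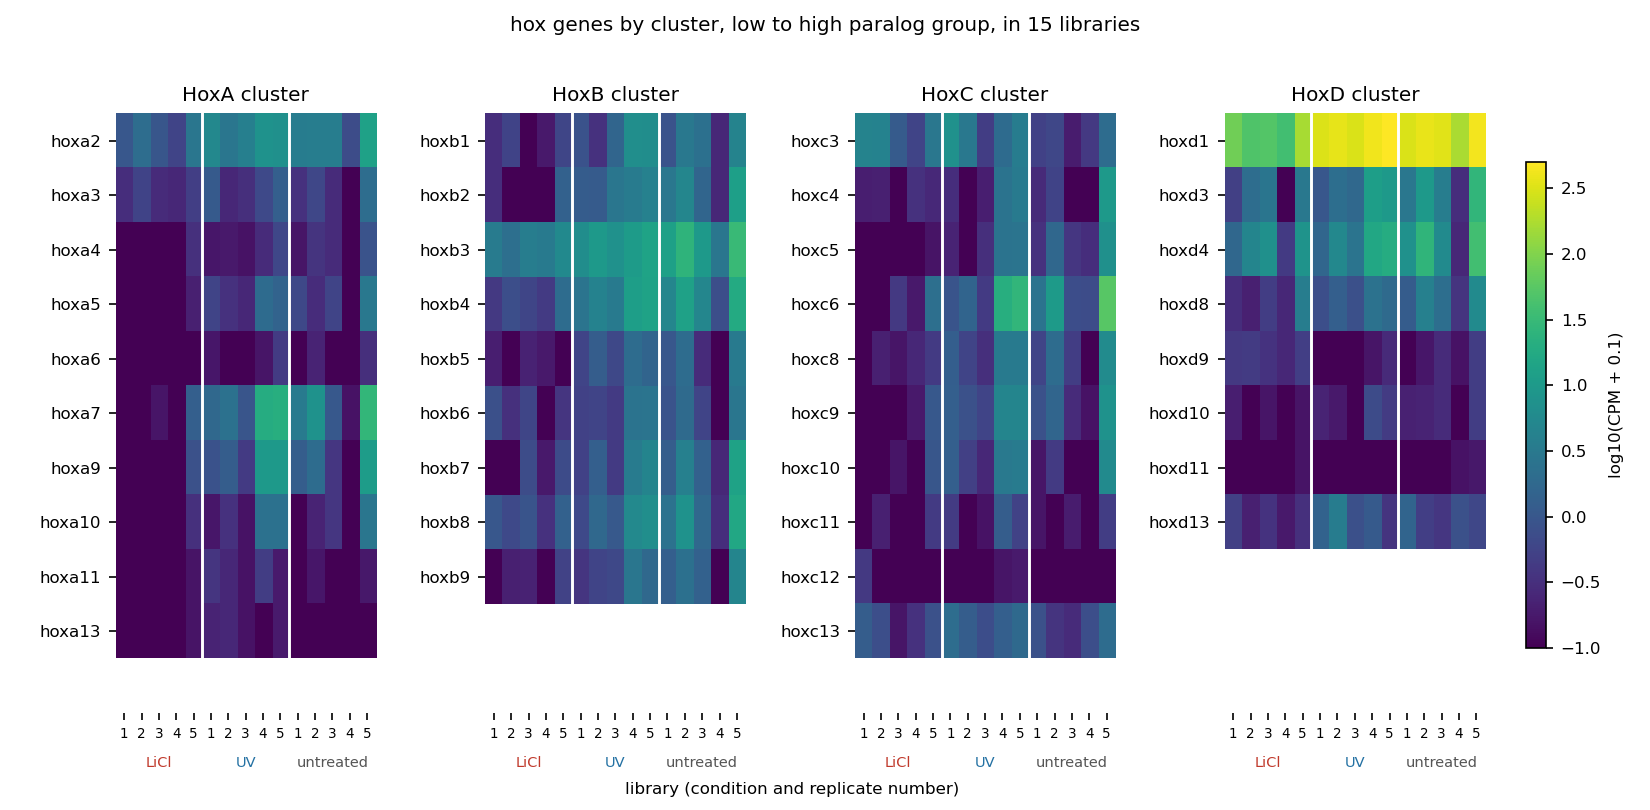
Level of hox genes (rows, low to high paralog group downwards within each cluster) in each of 15 libraries (columns, LiCl-treated, UV-treated and untreated, replicates 1 to 5), as log10(CPM + 0.1). hoxd1 is the brightest row in all conditions, and the LiCl-treated columns of hoxa4 to hoxa13 and hoxc5 to hoxc12 are mostly dark outside replicate 5.

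hoxd1 fell in LiCl-treated relative to both UV-treated and untreated embryos, hoxb3 fell relative to untreated embryos, and no member passed the threshold between UV-treated and untreated embryos. The 3 comparisons were tested by edgeR's quasi-likelihood test over all genes, with a threshold of a 2-fold change at an FDR of at most 1%. Of the members, 24 passed the filter on low counts and were tested among 14041 genes, so the counts below describe those and not the 14 members that were too low, and they are a description only, since a member could pass the filter through the condition in which it was highest. Between LiCl-treated and UV-treated embryos hoxd1 was the only member called, 1 of 24 lower, while 2.55% of all genes tested were called lower. No member was called higher in that comparison, where 3.55% of all genes were. At an unadjusted p under 0.05, 16 members were lower, beside 11.7% of all genes, and 0 higher. DESeq2 called 7, all lower (among them hoxa7, hoxb1, hoxb4, hoxb5, hoxd1 and hoxd13), beside 3.53% of all genes. Between LiCl-treated and untreated embryos hoxd1 and hoxb3 were called lower, 2 of 24 members, beside 1.42% of all genes, and none was called higher, beside 2.25% of all genes. At an unadjusted p under 0.05, 18 members were lower, beside 13.2% of all genes, and 1 (hoxc3) was higher, beside 14.0% of all genes. DESeq2 called 8, all lower, beside 2.43% of all genes. These were hoxd1 and, from HoxB, hoxb2, hoxb3, hoxb4, hoxb5, hoxb7, hoxb8 and hoxb9. In UV-treated relative to untreated embryos no member passed in either direction, beside 0.00712% of all genes called higher and 0.0641% called lower, with 1 member (hoxc3, higher, beside 4.81% of all genes) at an unadjusted p under 0.05 and none called by DESeq2.

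The fitted changes lay on 1 side in both comparisons with LiCl, although few passed. All 24 members tested had a negative log2 fold change between LiCl-treated and UV-treated embryos, with a median of −2.64, where 47.1% of all genes tested were negative and their median was 0.028. Against untreated embryos 23 of 24 were negative, with a median of −2.62, where 48.6% of all genes were negative with a median of 0.015. Between UV-treated and untreated embryos 12 of 24 were negative, with a median of 0.009 (all genes, 52.3% and −0.016). The 2 comparisons with LiCl share their LiCl-treated libraries and are not independent of each other. The sign counts and medians are a description only, since a member could pass the filter through the conditions in which it was highest. With only the 10 libraries compared, 13 members passed it for LiCl-treated against UV-treated embryos, and 14 for LiCl-treated against untreated embryos. In whole embryos, fewer cells that express a gene and less RNA per cell cannot be told apart. Without overlap between conditions, 6 of 24 members lay lower in every LiCl-treated than in every UV-treated library (among them hoxa2, hoxb3, hoxb4, hoxb5 and hoxd1), beside 6.04% of all genes, and 1 of 24 (hoxd1) lay lower than in every untreated library, beside 4.13% of all genes.

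**Figure D2:**
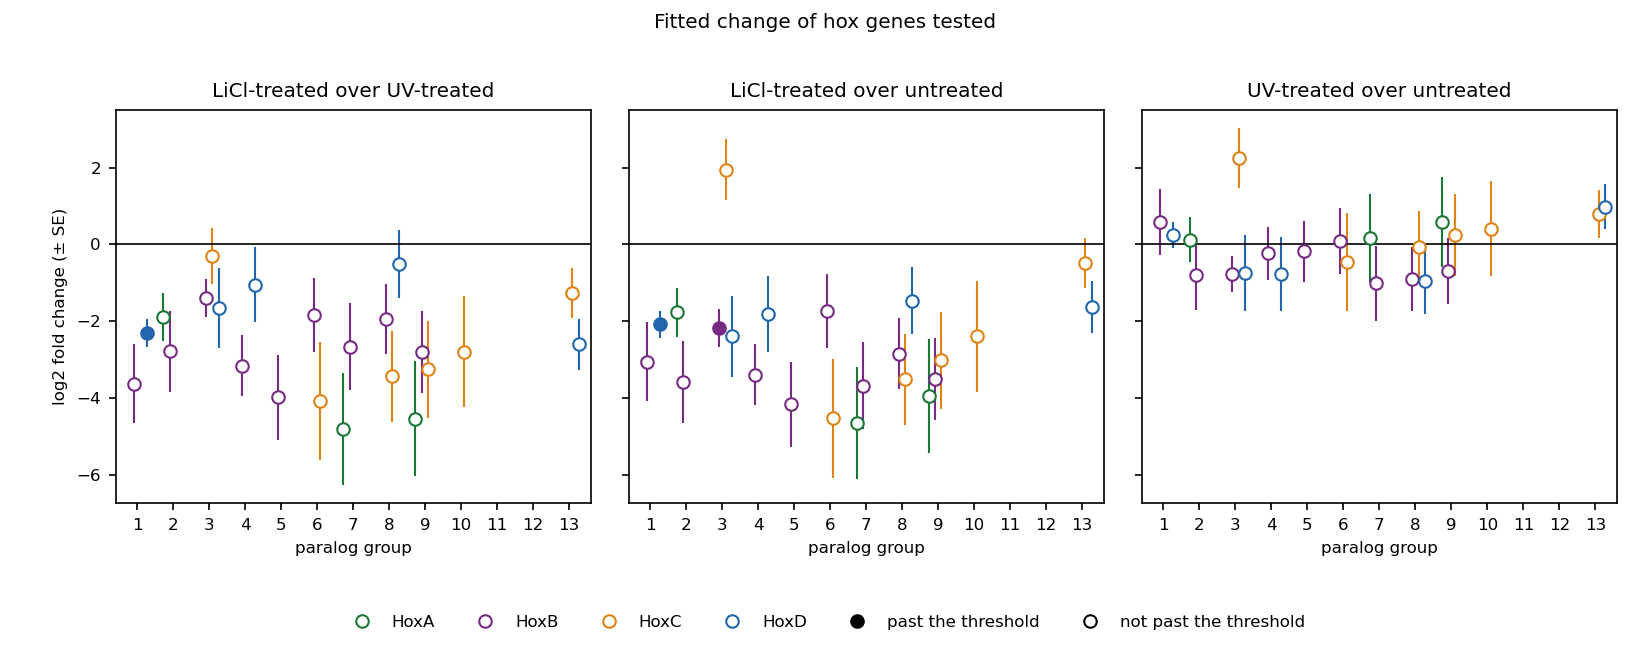
Log2 fold change with its SE (vertical axis) of hox genes tested, by paralog group (horizontal axis) and cluster (colour), for LiCl-treated over UV-treated, LiCl-treated over untreated and UV-treated over untreated embryos. Filled points passed the threshold. All points lie below 0 in the first panel and all but hoxc3 in the second, while the third is centred near 0.

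The LiCl-treated and untreated libraries of the same number deviated together from their condition means over all genes. LiCl-treated replicate 3, however, was slightly closer to untreated replicate 2 (correlation 0.371) than to untreated replicate 3 (0.338). A fit with the number as a block was read beside the unblocked one. In this fit of the 10 libraries, only 14 members passed the filter, and 8 of them fell in LiCl-treated embryos (among them hoxa2, hoxa7, hoxb2, hoxb4, hoxc6, hoxd1 and hoxd3), beside 2.67% of all genes called lower. With the 24 members kept over all 15 libraries, a choice made after the data were seen, 12 of them fell, the same 8 and hoxa9, hoxb1, hoxb9 and hoxc9, beside 2.74% of all genes. The block over all 15 libraries, which also takes the UV-treated libraries by number, called 2 of 24 members lower relative to untreated embryos (hoxb4 and hoxd1), beside 2.04% of all genes. The other calls of the 10-library fits were lost in it (FDR 0.0155 to 0.166). UV-treated replicate 4 did not pair by number (correlation −0.12 with LiCl-treated and −0.25 with untreated replicate 4). Whether this pairing cost calls was not tested, so the loss cannot decide between the fits. None was called higher in any of these fits. In both fits of 10 libraries hoxc3 was the only member above 0 (unadjusted p 0.00308 in the first). Of the 24 members, 12 were lower in the LiCl-treated library in 5 of 5 pairs of the same number, 7 in 4, 4 in 3 and 1 (hoxc3) in 0. The same tally was not made over all genes. It is a description only, since a member could pass the filter through the condition in which it was highest.

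Paralog group 1 holds the labial-type genes, the first to be transcribed in the gastrula. hoxd1, which in Xenopus is an early retinoic acid target of the marginal zone mesoderm, had 79.3, 47.1, 51.3, 38.4 and 167 CPM in LiCl-treated replicates 1 to 5, against 325, 363, 313, 422 and 492 CPM in UV-treated and 310, 373, 347, 168 and 428 CPM in untreated embryos. Every LiCl-treated library lay below every UV-treated one, and LiCl-treated replicate 5 lay just below the lowest untreated library, replicate 4. The level fell 4.99-fold relative to UV-treated embryos (log2 −2.32, SE 0.36, FDR 0.000489) and 4.24-fold relative to untreated embryos (log2 −2.08, SE 0.36, FDR 0.00191). UV-treated and untreated embryos overlapped (log2 0.24, SE 0.34, FDR 0.887). Both calls of hoxd1 were lost when the fold was tested against 2 rather than 1 (FDR 0.0101 relative to UV-treated and 0.0488 relative to untreated embryos), and that against untreated embryos also when the UV-treated libraries were left out of the fit (log2 −2.08, FDR 0.0117).

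hoxb1, which gives the fourth segment of the mouse hindbrain its identity, was at 1.74 CPM per kb of exon in untreated embryos. It had 0.204, 0.448, 0, 0.0806 and 0.497 CPM in LiCl-treated, 0.756, 0.24, 1.5, 6.72 and 6.42 CPM in UV-treated and 0.78, 2.93, 2.25, 0.158 and 4.43 CPM in untreated embryos. UV-treated replicates 4 and 5 stood well above the others, and the conditions overlapped. The log2 changes of −3.63 (SE 1.03, FDR 0.0257) relative to UV-treated and −3.06 (SE 1.03, FDR 0.0617) relative to untreated embryos did not pass. In the blocked fit over the genes kept in 15 libraries it fell by 3.10 on the log2 scale relative to untreated embryos (SE 0.58, FDR 0.00484), and it did not pass with the block over all 15 libraries (FDR 0.0495).

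Paralog groups 2 and 3 act in the hindbrain and the pharyngeal arches. hoxa2, which in mouse sets the identity of the second arch, had 0.916, 2.02, 0.879, 0.483 and 2.71 CPM in LiCl-treated, 5.29, 2.73, 3.8, 7.5 and 7.03 CPM in UV-treated and 3.48, 3.58, 3.56, 0.63 and 13.1 CPM in untreated embryos. The LiCl-treated range ended just below the UV-treated one and overlapped the untreated range only through untreated replicate 4. Changes of −1.90 (SE 0.63, FDR 0.055) relative to UV-treated and −1.78 (SE 0.63, FDR 0.0744) relative to untreated embryos on the log2 scale did not pass, while the blocked fit of 10 libraries gave −1.60 (SE 0.33, FDR 0.00702), which did, and that of 15 did not (FDR 0.0537).

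hoxb2, its HoxB paralog and also a hindbrain gene, had 0.204, 0, 0, 0 and 1.33 CPM in LiCl-treated, 1.1, 1.04, 2.73, 3.33 and 4.08 CPM in UV-treated and 2.88, 4.82, 1.5, 0.158 and 12.1 CPM in untreated embryos. It was without a count in 3 LiCl-treated libraries. Relative to UV-treated embryos the log2 change was −2.79 (SE 1.06, FDR 0.0936), and relative to untreated embryos it was −3.59 (SE 1.07, FDR 0.0371), and with the block in 10 libraries hoxb2 fell by 4.05 (SE 0.55, FDR 0.000967), a call lost with 15 (FDR 0.0164).

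hoxb3, a gene of the posterior hindbrain and arches, was the second member to pass the threshold. It had 3.36, 2.13, 3.64, 3.30 and 5.52 CPM in LiCl-treated, 6.39, 9.54, 7.22, 10.8 and 14.1 CPM in UV-treated and 12.4, 25.5, 9.55, 2.78 and 31.9 CPM in untreated embryos. All LiCl-treated libraries lay below all UV-treated ones, whereas untreated replicate 4 lay within the LiCl-treated range. The level fell 4.52-fold relative to untreated embryos (log2 −2.18, SE 0.49, FDR 0.0094). Relative to UV-treated embryos it was 2.65-fold lower without passing (log2 −1.40, SE 0.49, FDR 0.0652). The call rested close to the threshold: with 1 library left out it was lost in 14 of 15 fits (FDR 0.011 to 0.0307) and held only without untreated replicate 4 (log2 −2.45, FDR 0.000976), and the blocked fit gave −1.85 (FDR 0.028).

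hoxd3, the HoxD paralog of this group, had 0.407, 2.02, 2.64, 0 and 2.98 CPM in LiCl-treated, 0.894, 2.08, 1.66, 11.7 and 9.64 CPM in UV-treated and 2.88, 9.84, 3.65, 0.21 and 27.0 CPM in untreated embryos. The conditions overlapped widely, and the LiCl-treated library was the lower of the pair in 5 of 5 numbers against untreated embryos. The log2 changes were −1.65 (SE 1.05, FDR 0.348) relative to UV-treated and −2.40 (SE 1.06, FDR 0.156) relative to untreated embryos, and hoxd3 fell by 2.19 with the block in 10 libraries (SE 0.43, FDR 0.00693), a call lost with 15 (FDR 0.166). Relative to UV-treated embryos its sign turned, to 0.091, when UV-treated replicates 4 and 5 were left out.

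hoxc3, a gene that mouse and human lack and that lies at the anterior end of the frog HoxC cluster, was the only tested member with a positive fitted change between LiCl-treated and untreated embryos. It had 4.38, 4.26, 1.07, 0.483 and 2.82 CPM in LiCl-treated, 7.29, 2.97, 0.375, 1.88 and 3.47 CPM in UV-treated and 0.42, 0.521, 0.0937, 0.315 and 1.96 CPM in untreated embryos. In each of the 5 numbers the LiCl-treated library lay above the untreated one, although the ranges of all 3 conditions overlapped. The log2 changes relative to untreated embryos were 1.94 with LiCl (SE 0.79, FDR 0.122) and 2.25 with UV (SE 0.79, FDR 0.259), neither past the threshold, also not with the block (LiCl, 2.03, SE 0.52, FDR 0.0189). A model on the opposite strand shares 130 of its exon bases, and the effect of this was not tested.

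Group 4 marks the border of hindbrain and spinal cord. hoxb4, inducible by retinoic acid in Xenopus, had 0.305, 0.672, 0.502, 0.322 and 1.93 CPM in LiCl-treated, 2.54, 4.33, 3.26, 11.8 and 13.5 CPM in UV-treated and 4.92, 12.9, 4.96, 0.683 and 18.2 CPM in untreated embryos. The LiCl-treated libraries were all below the UV-treated ones, and only untreated replicate 4 overlapped them. At log2 changes of −3.16 relative to UV-treated (SE 0.79, FDR 0.0128) and −3.40 relative to untreated embryos (SE 0.80, FDR 0.0112), hoxb4 came nearest to the threshold of the members that did not pass it relative to untreated embryos. It fell with the block in 10 libraries (−3.33, SE 0.37, FDR 0.000347) and in all 15 (FDR 0.00539), and also passed relative to untreated embryos without untreated replicate 4 and without LiCl-treated replicate 5.

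hoxd4, the HoxD paralog of this group, showed no such separation. It had 1.63, 4.71, 7.03, 0.322 and 7.90 CPM in LiCl-treated, 1.58, 5.29, 2.57, 16.3 and 19.6 CPM in UV-treated and 7.38, 25.9, 5.81, 0.158 and 38.0 CPM in untreated embryos. LiCl-treated libraries lay below the untreated one of the same number in 3 of 5 pairs. The log2 changes were −1.05 (SE 0.99, FDR 0.568) relative to UV-treated and −1.82 (SE 1.00, FDR 0.265) relative to untreated embryos, and the change relative to UV-treated embryos turned to 0.48 without UV-treated replicates 4 and 5.

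**Figure D3:**
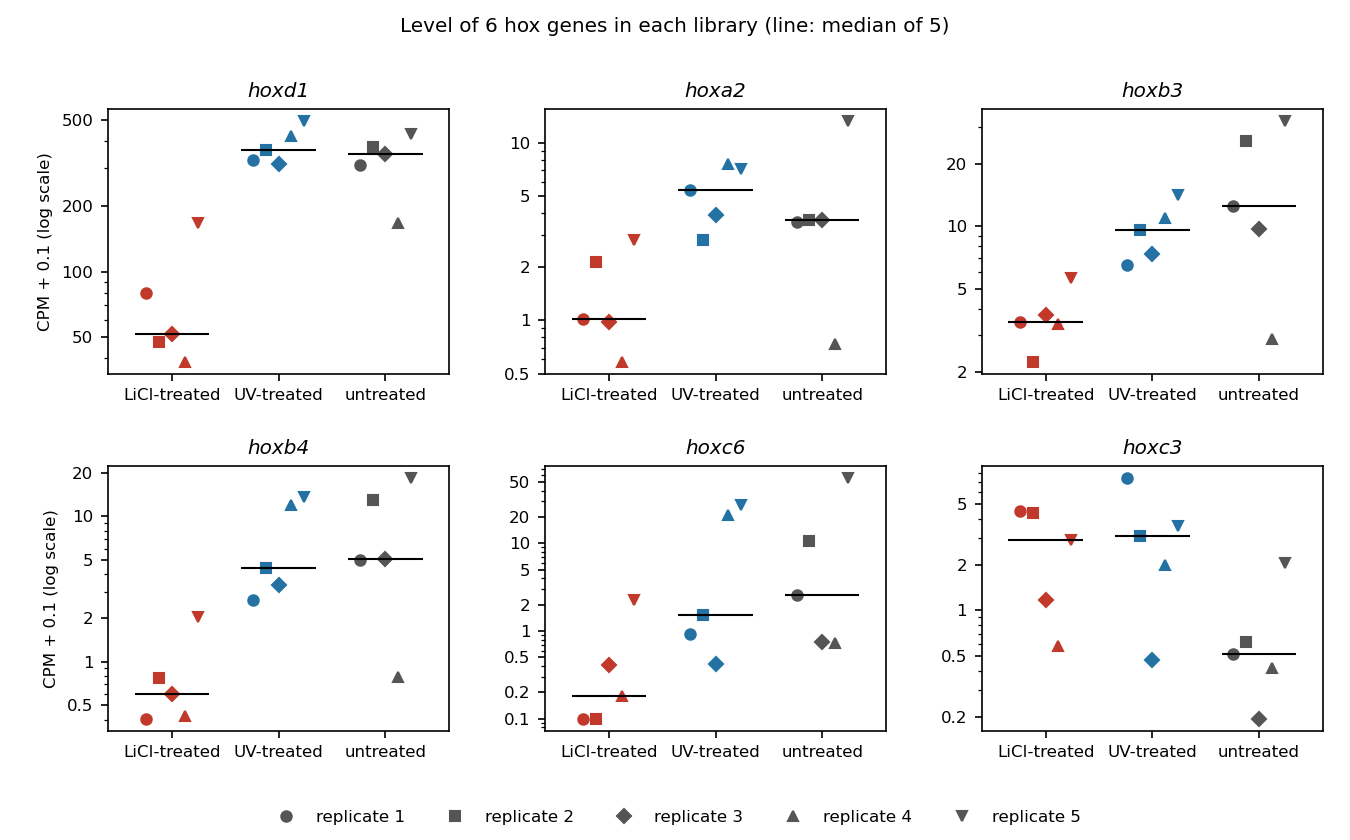
CPM + 0.1 on a log scale (vertical axis) of 6 hox genes in each library (points, shaped by replicate number) of LiCl-treated, UV-treated and untreated embryos, with the median of each condition as a line. hoxd1, hoxa2, hoxb3 and hoxb4 have all LiCl-treated points below all UV-treated ones, untreated replicate 4 lies low in all panels but that of hoxc3, and hoxc3 lies higher in most treated than untreated libraries.

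Groups 5 to 8 pattern the trunk, and their members were near the floor in most LiCl-treated libraries. Summed over the 11 members, they had 1.93, 1.01, 2.89, 0.806 and 9.67 CPM in LiCl-treated, 6.87, 10.2, 4.60, 63.5 and 72.1 CPM in UV-treated and 13.1, 41.2, 8.43, 1.52 and 141 CPM in untreated embryos. The sums spanned a wide range within each condition, with replicates 4 and 5 high among UV-treated and replicate 5 high among LiCl-treated and untreated embryos. None of the 8 members tested passed in the unblocked fit. Relative to UV-treated embryos 5 were lower at an unadjusted p under 0.05 (11.7% of all genes) and DESeq2 called 2 (3.53% of all genes), and relative to untreated embryos 6 were lower (13.2% of all genes) and DESeq2 called 3 (2.43% of all genes). The median log2 change relative to UV-treated embryos was −3.06, against −1.88 for groups 1 to 4, and relative to untreated embryos it was −3.60, against −2.13 for groups 1 to 4, differences that were not tested.

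hoxc6, a marker of trunk mesoderm and spinal cord, had 0, 0, 0.314, 0.0806 and 2.15 CPM in LiCl-treated, 0.825, 1.44, 0.321, 20.8 and 26.9 CPM in UV-treated and 2.46, 10.4, 0.656, 0.63 and 55.0 CPM in untreated embryos. Its highest untreated library exceeded its lowest 87.3 times. The log2 changes were −4.08 (SE 1.54, FDR 0.0902) relative to UV-treated and −4.54 (SE 1.56, FDR 0.0661) relative to untreated embryos. Within numbers the LiCl-treated library was lower in 5 of 5 pairs, and the blocked fit of 10 libraries gave −4.46 (SE 0.69, FDR 0.00301), past the threshold, while that of 15 did not pass (FDR 0.021).

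hoxa7, which in Xenopus responds to FGF and Cdx, had 0, 0, 0.0628, 0 and 1.22 CPM in LiCl-treated, 1.65, 2.32, 0.856, 19.4 and 20.5 CPM in UV-treated and 3.12, 7.49, 0.937, 0.0525 and 28.3 CPM in untreated embryos. Of its 23 counts in LiCl-treated embryos all but 1 came from replicate 5. The log2 changes of −4.81 (SE 1.47, FDR 0.036) relative to UV-treated and −4.65 (SE 1.46, FDR 0.0462) relative to untreated embryos were the lowest of all members in both comparisons, and hoxa7 fell relative to untreated embryos with the block in 10 libraries (−5.01, SE 0.50, FDR 0.000235) but did not pass with all 15 (FDR 0.0155).

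hoxb7 had 0, 0, 0.628, 0.0806 and 0.608 CPM in LiCl-treated, 0.412, 1.2, 0.321, 3.33 and 4.60 CPM in UV-treated and 1.14, 3.97, 1.31, 0.158 and 13.3 CPM in untreated embryos. Its log2 changes were −2.67 (SE 1.13, FDR 0.133) relative to UV-treated and −3.68 (SE 1.14, FDR 0.043) relative to untreated embryos. hoxb8 had 0.916, 0.56, 0.816, 0.242 and 1.33 CPM in LiCl-treated, 0.55, 1.68, 0.963, 5.45 and 6.68 CPM in UV-treated and 2.40, 7.69, 1.69, 0.21 and 16.6 CPM in untreated embryos. At −1.94 (SE 0.92, FDR 0.185) relative to UV-treated and −2.85 (SE 0.93, FDR 0.0545) relative to untreated embryos hoxb8 did not pass in edgeR, and neither did hoxb7. DESeq2 called hoxb7 and hoxb8 lower relative to untreated but not relative to UV-treated embryos. Both are trunk genes of the HoxB cluster, and in both untreated replicate 5 was the highest and untreated replicate 4 the lowest of the untreated libraries.

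hoxc8, whose 3′ exon bases are shared with an antisense model, had 0, 0.112, 0.0628, 0.161 and 0.331 CPM in LiCl-treated, 1.17, 0.481, 0.214, 3.27 and 3.30 CPM in UV-treated and 0.48, 1.95, 0.375, 0 and 6.03 CPM in untreated embryos. The log2 changes were −3.44 (SE 1.19, FDR 0.0641) relative to UV-treated and −3.51 (SE 1.19, FDR 0.0623) relative to untreated embryos. hoxd8 had 0.204, 0.112, 0.377, 0.161 and 3.59 CPM in LiCl-treated, 0.687, 1.2, 0.696, 2.42 and 1.82 CPM in UV-treated and 1.08, 4.04, 2.06, 0.263 and 5.81 CPM in untreated embryos. LiCl-treated replicate 5 exceeded all UV-treated libraries. Its log2 change was −0.52 (SE 0.88, FDR 0.784) relative to UV-treated and −1.47 (SE 0.87, FDR 0.308) relative to untreated embryos, and the change relative to UV-treated embryos turned to 0.16 without UV-treated replicates 4 and 5 and to 0.10 without the libraries numbered 4. hoxb5 and hoxb6 were tested but below 1 CPM on average. hoxb5 had 0 to 0.126 CPM in LiCl-treated, 0.481 to 1.94 CPM in UV-treated and 0 to 3.27 CPM in untreated embryos, and hoxb6 had 0 to 0.712 CPM in LiCl-treated, 0.321 to 2.52 CPM in UV-treated and 0 to 2.76 CPM in untreated embryos. Neither passed the threshold in the main fit. DESeq2 called hoxb5 lower in both comparisons with LiCl, and hoxb5 had only 4 counts over the 5 LiCl-treated libraries.

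Groups 9 to 13 pattern the posterior trunk, tail and limbs, and 8 of their 14 members were too low to test. Their summed level was highest in UV-treated replicates 4 and 5 and untreated replicate 5, and no member passed in the unblocked fit, with 4 of 6 lower at an unadjusted p under 0.05 and 1 called by DESeq2 in each comparison with LiCl, beside the same shares of all genes. hoxa9 had 0, 0, 0, 0 and 0.718 CPM in LiCl-treated, 0.756, 1.12, 0.321, 9.74 and 9.90 CPM in UV-treated and 1.14, 1.95, 0.281, 0 and 11.1 CPM in untreated embryos. All 13 of its LiCl counts came from replicate 5. The log2 changes were −4.55 (SE 1.50, FDR 0.0527) relative to UV-treated and −3.96 (SE 1.49, FDR 0.0925) relative to untreated embryos, and hoxa9 fell relative to untreated embryos in the block over the genes kept in 15 libraries (−4.38, SE 0.59, FDR 0.00129) but did not pass with the block over all 15 libraries (FDR 0.0294).

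hoxb9, a widely used marker of the Xenopus spinal cord, had 0, 0.112, 0.126, 0 and 0.442 CPM in LiCl-treated, 0.275, 0.481, 0.535, 2.78 and 1.65 CPM in UV-treated and 1.2, 2.22, 1.31, 0 and 4.65 CPM in untreated embryos. The ranges touched only through LiCl-treated replicate 5 and untreated replicate 4. The log2 changes of −2.81 (SE 1.07, FDR 0.0924) relative to UV-treated and −3.51 (SE 1.06, FDR 0.0391) relative to untreated embryos did not pass, and the block over the genes kept in 15 libraries gave −3.69 relative to untreated embryos (SE 0.51, FDR 0.00151), against an FDR of 0.0319 with all 15 libraries.

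hoxc9 had 0, 0, 0, 0.0806 and 0.939 CPM in LiCl-treated, 1.24, 0.721, 0.482, 4.78 and 4.77 CPM in UV-treated and 0.72, 1.5, 0.187, 0.0525 and 7.70 CPM in untreated embryos. Its log2 changes were −3.26 (SE 1.26, FDR 0.0978) relative to UV-treated and −3.02 (SE 1.26, FDR 0.129) relative to untreated embryos, and the same block gave −3.32 relative to untreated embryos (SE 0.67, FDR 0.00659), against an FDR of 0.0366 with all 15 libraries. hoxc10, the most posterior member tested at 1 CPM or more on average, had 0, 0, 0.0628, 0 and 0.884 CPM in LiCl-treated, 1.24, 0.401, 0.161, 3.03 and 3.39 CPM in UV-treated and 0.06, 0.326, 0, 0 and 5.81 CPM in untreated embryos. Nearly all its untreated counts came from replicate 5, and its log2 change of −2.39 relative to untreated embryos (SE 1.45, FDR 0.317) turned to 1.14 without that library. Relative to UV-treated embryos the change was −2.80 (SE 1.44, FDR 0.228).

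The terminal members hoxc13 and hoxd13 were counted at low levels across conditions, and not always highest in the replicates with high trunk hox counts. Among untreated libraries hoxc13 was highest in replicate 5 (1.96 CPM), which had high trunk hox counts, and hoxd13 in replicate 1 (1.44 CPM). hoxc13 ranged over 0.0628 to 1.12 CPM in LiCl-treated, 0.642 to 1.99 CPM in UV-treated and 0.187 to 1.96 CPM in untreated embryos, and hoxd13 over 0.0806 to 0.407 CPM in LiCl-treated, 0.26 to 3.45 CPM in UV-treated and 0.281 to 1.44 CPM in untreated embryos. Neither passed in any comparison of the main fit, with hoxd13 nearest at −2.61 on the log2 scale relative to UV-treated embryos (SE 0.67, FDR 0.0147). In that comparison hoxd13 was called lower by DESeq2 and by edgeR without UV-treated replicate 5.

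The 14 members that failed the filter were counted as follows. hoxa13, hoxc12 and hoxd11 had at most 2, 3 and 1 counts in any library, and did not exceed the counting floor in any condition. hoxa6, hoxa11, hoxd9 and hoxd10 reached at most 4, 6, 7 and 10 counts, and hoxa4, hoxc11, hoxa3, hoxa10 and hoxa5 at most 11, 19, 28, 38 and 41. hoxc5 and hoxc4 had their highest counts, 97 and 133, in untreated replicate 5, and were above the floor in 7 and 4 libraries. The next 3 were singled out after their values were seen. hoxa5 had 0, 0, 0, 0 and 2 counts in LiCl-treated, 7, 3, 3, 31 and 16 in UV-treated and 9, 3, 5, 0 and 41 in untreated embryos. hoxc5 had 1 count in all LiCl-treated libraries together, against 76 in UV-treated and 133 in untreated embryos. hoxd9 had 3, 3, 4, 2 and 7 counts in LiCl-treated, 0, 0, 0, 1 and 2 in UV-treated and 0, 1, 2, 1 and 5 in untreated embryos, all at or near the floor.

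Along each cluster the level did not decline evenly with paralog number, when untreated means are given as CPM per kb of exon. In HoxA, hoxa2 (2.78) lay above the floor in all 15 libraries, hoxa3 to hoxa6 (0.0976 to 0.509) were too low to test, and hoxa7 (3.72) and hoxa9 (1.61) lay above these. In HoxB all 9 members were tested, and hoxb3 (5.47) and hoxb4 (6.03) had higher means than hoxb1 (1.74) and hoxb2 (2.44). In HoxC the highest untreated mean per kb was that of hoxc6 (6.34), between hoxc5 (0.88) and hoxc8 (0.691). The value of hoxc8 uses its full exon length of 2560 bases, of which 1544 are shared with the opposite-strand model. It may therefore be too low. In HoxD, by level, hoxd1 (191) was followed by hoxd4 (7.63), hoxd3 (2.67), hoxd8 (1.27) and hoxd13 (0.706). hoxd9, hoxd10 and hoxd11 (0.0167 to 0.0848), which lie between hoxd8 and hoxd13, were too low to test. The spread between untreated libraries was as wide as most of these steps, except that at hoxd1. By cluster, the median log2 change of LiCl-treated relative to UV-treated embryos was −3.22 over 4 tested HoxA members, −2.79 over 9 of HoxB, −3.03 over 6 of HoxC and −1.65 over 5 of HoxD, and relative to untreated embryos it was −2.87 in HoxA, −3.40 in HoxB, −2.71 in HoxC and −1.82 in HoxD, with ranges that overlapped between all clusters.

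The spread between libraries of a condition was large and shared among members. Untreated replicate 5 was the highest untreated library for 23 of the 24 tested members and untreated replicate 4 the lowest for 20. These 2 libraries were also the least alike pair over all genes (chi-square per degree of freedom 118.7). How many of all genes had their highest or lowest value in the same libraries was not counted, so the tallies of members here are a description only. LiCl-treated replicate 5 was the highest LiCl-treated library for 18, and UV-treated replicates 5 and 4 were the highest UV-treated libraries for 14 and 7. The 37 members other than hoxd1 summed to 26.9, 31.4, 28.8, 8.30 and 65.5 CPM in LiCl-treated, 73.3, 81.2, 62.9, 214 and 244 CPM in UV-treated and 88.8, 180, 79.5, 15.0 and 412 CPM in untreated embryos. Untreated replicate 4 thus had a lower summed CPM of these 37 members than 4 of the 5 LiCl-treated libraries. Among members above the floor in all untreated libraries, the highest library exceeded the lowest by a median of 16.1 times over 6 members of groups 1 to 4 and of 79.2 times over 3 members of groups 5 to 8, but only 2.56 times for hoxd1.

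Within a number the LiCl-treated library was below the untreated one in all 5 pairs for hoxd1 and for the sums of all 3 classes of paralog groups, but not for the sums of all clusters. For hoxd1 it held 25.6, 12.6, 14.8, 22.9 and 39.0% of the untreated level in numbers 1 to 5. For the other members of groups 1 to 4 it held 32.3, 22.0, 36.9, 58.2 and 21.6%, for groups 5 to 8 14.7, 2.45, 34.3, 53.0 and 6.86%, and for groups 9 to 13 41.0, 19.0, 27.2, 35.7 and 14.2%. Summed by cluster without hoxd1, it held 21.8 to 29.2% in HoxA, 6.49 to 99.0% in HoxB (highest in number 4), 8.79 to 110.0% in HoxC (above the untreated library in number 1) and 18.1 to 86.9% in HoxD (highest in number 3). UV-treated replicate 4 did not pair with the other libraries numbered 4, and UV-treated replicates 4 and 5 were the pair described above, so UV-treated libraries were not set beside the others by number here. Without the libraries numbered 4, 6 members were called lower in LiCl-treated than in untreated embryos (among them hoxb3, hoxb4, hoxb5, hoxb9 and hoxd1), beside 1.84% of all genes, and without those numbered 5 only hoxd1, beside 1.05% of all genes, both choices made after the data were seen. Without UV-treated replicates 4 and 5, hoxd1 was the only member called in either comparison with LiCl, beside 1.03% of all genes called lower relative to UV-treated and 1.24% relative to untreated embryos.

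**Figure D4:**
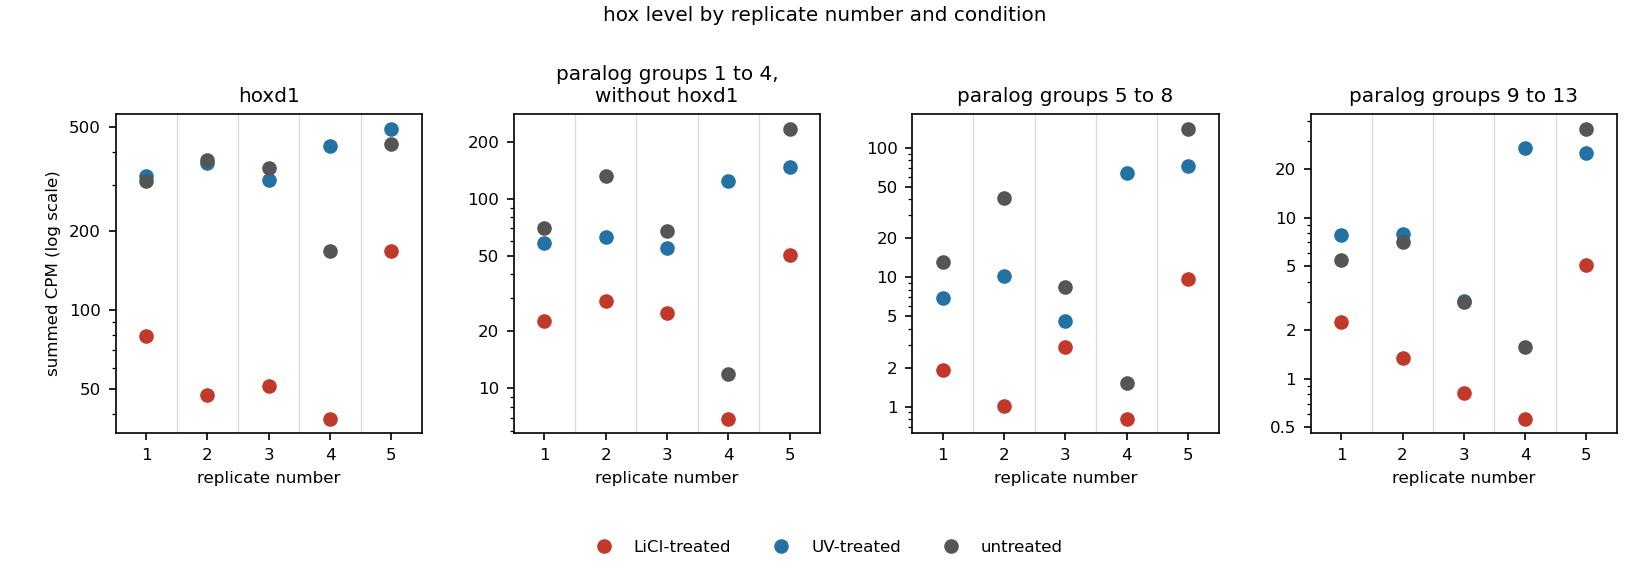
Summed CPM on a log scale (vertical axis) of hoxd1 and of the other members by class of paralog group, by replicate number (horizontal axis), in LiCl-treated, UV-treated and untreated embryos. Each LiCl-treated point lies below the untreated point of its number, and the libraries numbered 5 and UV-treated replicate 4 are high in the 3 classes, up to 141 CPM for groups 5 to 8 in untreated replicate 5.

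Genes that act on the hox clusters were read beside them, from lists written with earlier results of these data known. Of 17 tested hox regulators (Cdx, Gbx, Evx, Wnt, FGF and retinoic acid genes), 6 fell in LiCl-treated relative to UV-treated embryos (cdx1, cdx2, cdx4, gbx2.2, evx1 and wnt8a), beside 2.55% of all genes. Relative to untreated embryos 5 fell (all of these but cdx2), beside 1.42% of all genes. None was called higher in either comparison. DESeq2 called 8 relative to UV-treated embryos (9.48% of all genes in both directions), of which only cyp26c1 was higher. It called 7 relative to untreated embryos (6.88%), all lower. In edgeR cyp26c1 had log2 changes of 2.37 (FDR 0.0148) relative to UV-treated and −1.64 (FDR 0.0621) relative to untreated embryos. It averaged 3.33 CPM in LiCl-treated, 0.615 CPM in UV-treated and 10.4 CPM in untreated embryos. Between UV-treated and untreated embryos its log2 change was −4.01 (FDR 0.0114). That comparison held 1 DESeq2 call among the regulators, cyp26c1 lower, beside 0.712% of all genes. cdx4, one of the Cdx factors that bind the clusters, averaged 108 ± 54.6 CPM in LiCl-treated, 513 ± 113 CPM in UV-treated and 418 ± 173 CPM in untreated embryos (SD, n = 5 each), with log2 changes of −2.24 (FDR 0.000741) relative to UV-treated and −1.95 (FDR 0.00332) relative to untreated embryos. wnt8a, the Wnt ligand of the ventrolateral mesoderm, averaged 74.9 ± 42.1 CPM in LiCl-treated, 766 ± 204 CPM in UV-treated and 350 ± 52.9 CPM in untreated embryos, and on the log2 scale fell by 3.35 (FDR 1.52e-05) relative to UV-treated and by 2.22 (FDR 0.000549) relative to untreated embryos. aldh1a2, which makes retinoic acid, averaged 634 ± 97.4 CPM in LiCl-treated, 433 ± 107 CPM in UV-treated and 396 ± 33.7 CPM in untreated embryos. It was higher by 0.55 on the log2 scale relative to UV-treated (FDR 0.0233) and by 0.68 relative to untreated embryos (FDR 0.00922), without reaching a 2-fold change. At an unadjusted p under 0.05, 12 of 17 regulators differed from UV-treated embryos (all genes, 11.7% lower and 2229 of 14041 higher). Among them cyp26a1 (0.79) and fgf8 (0.31) were higher and rara (−0.95) lower. Relative to untreated embryos 11 differed (13.2% lower, 14.0% higher), with fgf8 (0.247) higher and rara (−0.904) lower, but not cyp26a1 (−0.125, FDR 0.779). In UV-treated relative to untreated embryos cyp26a1 was lower (−0.915, FDR 0.0737, unadjusted p under 0.05), beside 6.73% of all genes. Of the 6 tested cofactor genes (Pbx, Meis and Pknox) none passed in edgeR or DESeq2 in any comparison. At an unadjusted p under 0.05 there were 0 for LiCl-treated against UV-treated embryos, beside 11.7% of all genes lower. For LiCl-treated against untreated embryos there were 3, all lower, beside 13.2% of all genes: pbx2 (−0.51), meis1 (−1.91) and meis3 (−0.79). For UV-treated against untreated embryos there was 1 (pbx2, −0.61), beside 6.73% of all genes lower.

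Markers of the posterior mesoderm and of the dorsal and ventral sides differed between the same libraries. Of 6 tested genes of posterior and paraxial mesoderm, 3 fell in LiCl-treated relative to UV-treated embryos (t, msgn1 and mespb), beside 2.55% of all genes. Relative to untreated embryos 2 fell (msgn1 and mespb), beside 1.42% of all genes. mespa, myod1 and myf5 passed in neither comparison. At an unadjusted p under 0.05 all 6 genes of the list were lower relative to untreated embryos, beside 13.2% of all genes. The summed level of the list was 563 to 802 CPM in LiCl-treated, 1290 to 1650 CPM in UV-treated and 916 to 1400 CPM in untreated embryos, with no LiCl-treated library reaching the others. Most of this sum was t, which averaged 471 CPM in LiCl-treated, 1030 CPM in UV-treated and 747 CPM in untreated embryos. msgn1 averaged 7.84 ± 9.11 CPM in LiCl-treated, 132 ± 45.5 CPM in UV-treated and 135 ± 62.2 CPM in untreated embryos. All 3 organiser genes rose and 4 of 5 ventral genes fell in LiCl-treated relative to UV-treated embryos, beside 3.55% of all genes called higher and 2.55% called lower. The ventral list summed to 779 to 1790 CPM in LiCl-treated, 1880 to 4050 CPM in UV-treated and 1690 to 2380 CPM in untreated embryos. Relative to untreated embryos 1 ventral gene (bmp4, lower, beside 1.42% of all genes) and no organiser gene passed with LiCl. At an unadjusted p under 0.05, all 3 organiser genes were higher (14.0% of all genes) and 4 of 5 ventral genes lower (13.2% of all genes). DESeq2 called 2 organiser genes higher and 1 ventral gene lower (6.88% of all genes in both directions). The part of these lists in the hox values was not tested.

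Of the 14 tested among 22 flanking or embedded models, evx1, the homeobox gene beyond hoxa13, fell in LiCl-treated relative to UV-treated (−4.24, FDR 0.000117) and untreated embryos (−3.41, FDR 0.000955), with 5.02 ± 3.89 CPM in LiCl-treated, 95.8 ± 38.8 CPM in UV-treated and 54.2 ± 24 CPM in untreated embryos. snx11, beyond hoxb1, rose by 1.08 on the log2 scale relative to untreated embryos (FDR 0.00421). None of the other 12 passed in these comparisons in edgeR. Of all genes, 2.55% were called lower and 3.55% higher relative to UV-treated embryos, and 1.42% lower and 2.25% higher relative to untreated embryos. DESeq2 called 2 of the 14 relative to UV-treated and 3 relative to untreated embryos (9.48% and 6.88% of all genes in both directions). Among them was calcoco2, beyond hoxb9, higher in both (log2 1.005 and 1.141 in edgeR). evx2, beyond hoxd13, was too low to test.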

How the data were processed

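RNA-seq counts of 15 libraries of whole gastrulae were used, 5 each of LiCl-treated, UV-treated and untreated embryos. The deposited counts are whole reads per gene, not normalised. Per the study's methods, paired-end reads were aligned with TopHat2 to the deposited gene models, with no new junctions sought, and then counted by HTSeq-count in intersection-nonempty mode. The submitters' processing notes name TopHat2 2.0.10 and 2.1.1, CASAVA 1.8.2, HTSeq and DESeq2 without roles, and the strand setting is not given in the sources used here. Reads that 2 models share are dropped in this mode. The deposited gene models hold exon positions and gave other values: gene order, exon length and overlaps. Columns were matched to samples by their titles.

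Genes were filtered with filterByExpr by condition and tested in R 4.3.3 with edgeR 4.0.16 (limma 3.58.1 loaded) by the quasi-likelihood test, with TMM normalisation and all 15 libraries in 1 fit. Adjustment over 14041 genes was by Benjamini-Hochberg. Following the study, a gene was called at a fold of at least 2 and an FDR of at most 0.01. SEs are the log2 fold change divided by the square root of F, fold changes use a prior count of 0.125, and CPM use TMM library sizes. Alternatives included DESeq2 1.42.0, other normalisations and filters, the replicate block and leaving out each library.

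Members and lists were chosen with earlier results of these data known. Values per library are given for tested members with a mean of at least 1 CPM or past the threshold, the other tested members by range, and the rest by their highest count. Values of 1 item are not reported here. The numbers were taken to pair libraries where every correlation of deviations from the condition means exceeded 0.1. LiCl-treated and untreated libraries did so (0.338 to 0.731), and the study describes 5 independent experiments. UV-treated replicate 4 did not (−0.12 with LiCl-treated and −0.25 with untreated replicate 4), and its closest untreated library was replicate 5 (0.405). LiCl-treated replicate 3 was closer to untreated replicate 2 (0.371) than to untreated replicate 3 (0.338). UV-treated replicate 1 was closer to untreated replicate 4 (0.392) than to untreated replicate 1 (0.253). For the other LiCl-treated libraries the closest untreated library had the same number. Pairing by number was therefore assumed, not shown. p-values measure the spread between these pooled libraries. Reads carry no molecular identifiers.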

Additional observations from a re-analysis of the deposited data

Results flagged for a closer look

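The 20 members with values per library in 3 conditions gave 60 groups of 5 libraries. In 16 of these groups the highest library stood apart from the other 4 by Dixon's criterion. The criterion flags about 1 in 20 groups if values are normal and groups independent. The CPM values here were skewed and the members share libraries, so the 16 flags are a description and cannot be set against that rate. All 9 in LiCl-treated embryos were replicate 5: hoxa7 (1.22 CPM), hoxa9 (0.718 CPM), hoxb2 (1.33 CPM), hoxb4 (1.93 CPM), hoxb9 (0.442 CPM), hoxc6 (2.15 CPM), hoxc9 (0.939 CPM), hoxc10 (0.884 CPM) and hoxd8 (3.59 CPM). All 7 in untreated embryos were replicate 5 as well: hoxa2 (13.1 CPM), hoxa7 (28.3 CPM), hoxa9 (11.1 CPM), hoxc3 (1.96 CPM), hoxc6 (55.0 CPM), hoxc9 (7.70 CPM) and hoxc10 (5.81 CPM). No UV-treated library stood apart, where replicates 4 and 5 were high together.

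The effect of LiCl on hoxd1 differed from that of UV, each relative to untreated embryos, by −2.32 on the log2 scale, which is the tested contrast of LiCl-treated and UV-treated embryos.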

How the results depend on the processing

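Percentages in brackets are the share of all genes called lower under the same setting. UV-treated replicate 4 did not pair by number (correlation −0.12 with LiCl-treated and −0.25 with untreated replicate 4). The blocked fits that hold UV-treated libraries still block it by number, and the effect of this was not tested. Between LiCl-treated and UV-treated embryos 1 member was past the threshold (2.55%), 7 with DESeq2 (3.53%), 0 when the fold was tested against 2 (glmTreat, 0.762%), 3 with only the 10 libraries compared (2.44%), 3 with a replicate block over all 15 libraries (3.26%), 3 with the block in the 10 libraries (2.08%), 5 with that block over the genes kept in 15 libraries (2.04%) and 7 at an FDR of 0.05 (3.63%), and 1 to 3 with 1 library left out. Between LiCl-treated and untreated embryos 2 were past it (1.42%), 1 with library size alone (1.22%), 1 with upper quartile normalisation (1.26%), 1 with a mean of at least 1 CPM (1.39%), 8 with DESeq2 (2.43%), 0 with glmTreat (0.0855%), 0 with only the 10 libraries (0.774%), 2 with the replicate block over all 15 libraries (2.04%), 8 with the block in the 10 libraries (2.67%), 12 with it over the genes kept in 15 libraries (2.74%), 8 at an FDR of 0.05 (2.6%), and 1 to 5 with 1 library left out (5 without untreated replicate 4). It was 1 without UV-treated replicates 4 and 5 (1.24%), 1 without the libraries numbered 5 (1.05%) and 6 without those numbered 4 (1.84%). UV-treated and untreated embryos gave 0 throughout. Library size alone moved the median of all genes by 0.12 between LiCl-treated and untreated embryos.

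Of 42 fitted changes under 1226 alternatives, 1136 kept direction and side of the threshold, 27 lost a call, 57 gained one and 6 turned: hoxc3 (0.25 without UV-treated replicate 1, −0.61 to 0.25 with 1 library left out), hoxd3 (0.091), hoxd4 (0.48) and hoxd8 (0.16) without UV-treated replicates 4 and 5, and hoxd8 (0.10) without the libraries numbered 4, all relative to UV-treated embryos, and hoxc10 relative to untreated embryos (1.14 without untreated replicate 5, −5.39 to 1.14 with 1 library left out). None of these was called. Fewer members were tested in the fits of 10 libraries, since fewer passed the filter; otherwise the cause was not tested. Depth limits what can be said of members near the floor of 3 counts in any library.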
